A study of Rattus norvegicus with 93 samples.

Results

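The respiratory chain sits in the inner mitochondrial membrane and is the main oxygen-consuming machine of the cell. Complex I takes electrons from NADH and complex II, succinate dehydrogenase, takes them from succinate. Ubiquinone carries them to complex III, cytochrome c carries them on to complex IV, and complex IV hands them to oxygen. The protons pumped on the way drive ATP synthase, also called complex V. Most subunits are encoded in the nucleus, and complex IV has tissue isoforms: Cox6a2 and Cox8b are those of heart and skeletal muscle, Cox6b2 and Cox8c those of testis, and Cox4i2 a form found in lung and induced by low oxygen.

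The genes described here were all those whose symbol on the array platform starts with Nduf, Sdha, Sdhb, Sdhc, Sdhd, Uqcr, Cox4, Cox5, Cox6, Cox7, Cox8 or Atp5. They numbered 88 of the 15924 named genes on the array and were read by 108 probes. By role they were 32 subunits and 7 assembly factors of complex I, the 4 subunits of complex II with the assembly factor Sdhaf2, and 7 subunits of complex III. Complex IV had 9 common subunits and 6 tissue isoforms, and ATP synthase had 15 subunits, beside Ndufa4 and Cox7a2l. Another 2 genes, Dmac2 and Dmac2l, were classed as accessory to ATP synthase by their platform symbols Atp5sl and Atp5s. Dmac2 is now known as an assembly factor of complex I but is not counted among those 7. Ndufa4 is now counted with complex IV, and Cox7a2l joins complexes III and IV into supercomplexes. The rule also took in 3 genes that only sound alike: Emc8, a subunit of a membrane protein insertase that was formerly named for its neighbour Cox4, and the copies Cox6c-ps1 and Atp5hl1. The genes lay on 20 different chromosomes. Cox6b1, Cox7a1, Ndufa4l2 and the subunits encoded by mitochondrial DNA were not analysed here.

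The samples came from male rats aged 12 weeks in which a round piece of the calvaria, the roof of the skull, had been cut out with a trephine on a drill press. The hole was 8 mm wide, a size the series calls critical, or 4 mm wide, below that size, and it received no further treatment. The tissue filling the hole was cut out with the same trephine, and the RNA of each defect was labelled with Cy3 and put on 1 one-colour Agilent array. At days 1, 3, 5, 7, 10, 14 and 21 the 4 mm groups held 3, 8, 11, 5, 4, 5 and 6 arrays, and the 8 mm groups held 5, 11, 12, 5, 6, 6 and 6, or 93 arrays in all. Neither uninjured bone nor an untouched control group was among the samples used here, so day 1, with 8 arrays, was the reference for each later day. All comparisons with day 1 therefore share those 8 arrays. The rat number in a title is taken to mark a separate animal.

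Values are log2 of the deposited ratio, in which a probe's median over all arrays is 1 for 87.8% of 41090 probes. A level of 0 on the log2 scale is thus the middle of that gene's own range, and levels are not compared between genes. No value lies below a ratio of 0.01, a log2 of -6.64. This floor held 10.0% to 10.9% of the values on each array of days 1 to 5 and 10.1% to 23.8% on the arrays of days 7 to 21. The medians over arrays were 10.2% and 17.6%, so most arrays of the later days also differ from those of day 1 in floor share. Of the 88 genes, 75 were above the floor on every array, against 6788 of all 15924 genes. On 7 arrays the overall level, taken as the median log2 over probes that no array has at the floor, was below -0.7. They were rat 13 of 4 mm and rat 11 of 8 mm at day 1, rats 18 and 20 of 8 mm at day 3, and rat 10 of 4 mm and rats 10 and 11 of 8 mm at day 10. Because 2 of the 8 reference arrays are among them, the counts are given as deposited, after centring, and without these 7 arrays, a setting chosen after the data were seen. Centring took from each array its own median over all probes, those with values at the floor included. At day 1 that median was -0.66 for rat 13 of 4 mm and -0.64 for rat 11 of 8 mm. Their levels as defined above were -1.19 and -1.50, so centring removed only part of the low level. These are bulk tissue values, in which fewer cells of a type and less RNA per cell cannot be told apart.

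The cell make-up of the plug changed over the same days. Of 8 osteoblast and bone markers, 4 were higher at day 5 and 5 at day 21 than at day 1. At day 5 Bglap, Sp7, Phex and Spp1 did not pass, with differences of -0.04, -0.13, -0.39 and -0.31. Sp7, an osteoblast marker of the list, passed at no later day. Skeletal muscle markers changed as well. The mean log2 of 16 of them was 4.18 in the 4 mm and 3.16 in the 8 mm group at day 1, 1.50 and 1.56 at day 5, -1.83 and -0.31 at day 7, and -1.66 and -2.34 at day 21. Arrays of days 3 and 5 were spread widely around these means. In 4 mm defects of day 5 rats 10 to 14 and 16 lay between -2.02 and -0.24 and rats 17 to 21 between 2.30 and 5.80, and at day 3, 4 of 8 arrays lay between -2.10 and 0.53 and the other 4 between 4.26 and 5.66. The 8 mm arrays of day 5 ran from -1.56 to 6.01. The number of these 16 markers that were lower than at day 1 was 1 at day 5, 13 at days 7 and 10, 14 at day 14 and 15 at day 21. At day 5, 5 of 6 macrophage and 4 of 5 endothelial markers were higher, and 4 of 6 neutrophil and 3 of 4 erythroid markers were lower. The part of these shifts in the results was not tested, except that muscle and brain marker levels were entered as covariates where stated.

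The 250 bases before the start site are shown for 4 genes that stand for the patterns reported: Atp5mc2, with a low adjusted p over the days in both sizes, Cox4i1, the common form of its subunit, and Cox6a2 and Cox8b, the striated muscle forms. They are RefSeq sequence of the GRCr8 build, read 5′ to 3′ on the gene's own strand. Capitals mark matches to the sites searched, which were NRF1 (GCGCA, any base, GCGC) in Atp5mc2, SP1 (GGGCGG) and the hypoxia response core (ACGTG) in Cox4i1 and Cox8b, and MEF2 (CTA, any 4 bases, TAG) in Cox6a2. NRF1 is the regulator classically tied to nuclear respiratory genes, and MEF2 proteins are regulators of muscle genes.
Atp5mc2: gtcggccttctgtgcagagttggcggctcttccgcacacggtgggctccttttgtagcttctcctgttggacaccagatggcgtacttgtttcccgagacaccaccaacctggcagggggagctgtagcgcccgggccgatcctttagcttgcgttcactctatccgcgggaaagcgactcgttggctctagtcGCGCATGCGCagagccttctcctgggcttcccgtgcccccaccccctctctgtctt
Cox4i1: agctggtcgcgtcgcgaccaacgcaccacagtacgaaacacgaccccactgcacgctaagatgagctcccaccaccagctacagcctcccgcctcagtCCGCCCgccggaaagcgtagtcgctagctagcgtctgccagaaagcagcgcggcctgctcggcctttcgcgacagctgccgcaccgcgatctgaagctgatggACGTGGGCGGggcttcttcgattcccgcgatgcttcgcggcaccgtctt
Cox6a2: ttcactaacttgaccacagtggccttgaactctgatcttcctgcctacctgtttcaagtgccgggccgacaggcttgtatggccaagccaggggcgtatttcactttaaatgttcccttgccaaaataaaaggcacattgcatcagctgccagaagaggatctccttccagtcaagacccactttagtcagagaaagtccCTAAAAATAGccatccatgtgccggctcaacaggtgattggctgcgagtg
Cox8b: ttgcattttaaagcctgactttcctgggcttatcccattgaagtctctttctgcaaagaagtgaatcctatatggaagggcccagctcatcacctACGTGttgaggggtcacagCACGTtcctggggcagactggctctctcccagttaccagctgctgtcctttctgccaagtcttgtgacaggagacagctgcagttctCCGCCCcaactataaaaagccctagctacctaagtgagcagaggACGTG
The Atp5mc2 window is chr7:135678219-135678468 on the minus strand, with its match 56 bases before the start. The Cox4i1 window is chr19:65630133-65630382 on the plus strand, with SP1 matches 152 and 45 bases and a hypoxia core 49 bases before the start. The Cox6a2 window is chr1:192219717-192219966 on the minus strand, with its match 50 bases before the start. The Cox8b window is chr1:205408274-205408523 on the minus strand, with an SP1 match 49 bases and hypoxia cores 155, 136 and 5 bases before the start.

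Promoters of 75 of the 88 genes were matched in the RefSeq table; those of Cox4i2 and Cox6a1 were not among them. Both strands were searched for all sites. The NRF1 site was found in 13 of the 75 windows (17.3%), against 4.17% of all 27457 promoters and 6.79% of the 13145 promoters of genes on the array. The 13 were those of Atp5mc2, Atp5me, Atp5po, Ndufa5, Ndufa11, Ndufa12, Ndufaf4, Ndufaf5, Ndufs5, Ndufs6, Ndufv3, Sdha and Uqcrc1. An ETS site of the kind bound by GABPA (CCGGAAGT) was found in 8 (10.7%), against 3.29% and 5.21%, and the hypoxia core in 20 (26.7%), against 16.9% and 19.5%. SP1 sites were found in 30 (40%), against 32.4% and 48.3%, and MEF2 sites in 2, those of Cox5b and Cox6a2 (2.67%), against 3.43% and 2.98%. Sites for ERR alpha (CAAGGTCA) and YY1 (AAGATGGC) were found in 2 windows each, against 1.30% and 1.69% of all promoters. These are matches of letters in a window, not shown binding.

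As deposited, with both sizes weighted equally, the median difference of the set from day 1 was highest at day 5 and lowest at day 21. Complex I subunits, the largest class with 32 of the 88 genes, held the most changed genes. Between day 1 and day 5, 26 of the 88 genes were higher and 1 was lower in limma's test with Benjamini-Hochberg adjustment over all 15924 genes, where 23.5% of all genes were called, 21.5% as higher and 2.04% as lower. The 26 included 12 of 32 complex I subunits, 5 of 15 ATP synthase subunits, 2 of 7 complex I assembly factors, 2 of 7 complex III subunits, 1 of 4 complex II subunits and 1 of 9 common complex IV subunits. The median log2 difference was 0.53 over the 88 genes and 0.38 over all genes. The 75 genes above the floor throughout had a median of 0.53, against 0.60 for the 6788 genes with that property. The share of the set that was called, and its median, thus lay near those of the whole array.

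At day 3 only Ndufs5 passed, as a higher gene, while 7.66% of all genes were called and 7.06% were higher. The median difference of the 88 genes was 0.32, against 0.23 for all genes. At day 7, 15 genes were higher and 1 was lower, where 25.4% of all genes were called (20.4% higher and 4.95% lower), with medians of 0.40 and 0.33. At day 10 the counts were 5 and 1 (18.6% of all genes, 12.5% higher and 6.07% lower; medians 0.02 and 0.03) and at day 14 they were 6 and 1 (23.7% of all genes, 15.8% higher and 7.84% lower; medians 0.21 and 0.07). At day 21, 4 genes were higher and 7 were lower, where 28.1% of all genes were called (16.0% higher and 12.1% lower), with medians of -0.09 and -0.05. The 7 lower genes were 3 complex I subunits, 2 ATP synthase subunits, Cox8b and Emc8, while no subunit of complex II, complex III or common complex IV passed in either direction.

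**Figure D1:**
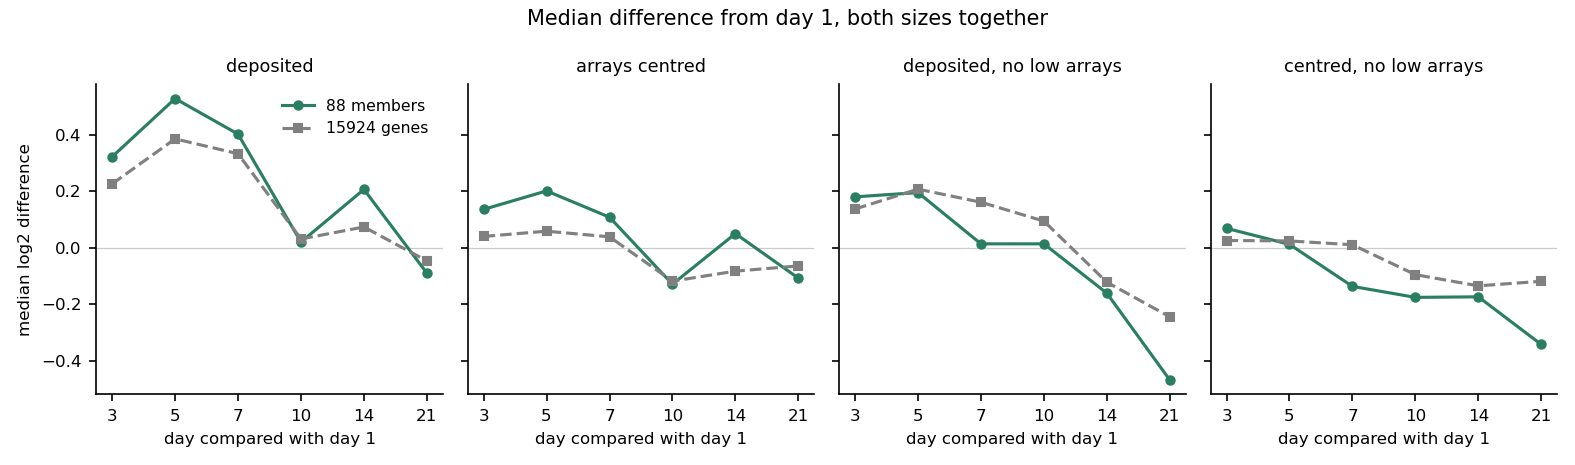
Median log2 difference from day 1 over the 88 respiratory chain and ATP synthase genes and over all 15924 genes at each later day, in 4 panels: as deposited, centred, and each of these without the 7 arrays of low level. As deposited the 88 genes stand at 0.53 at day 5 and -0.09 at day 21, and without the 7 arrays at 0.19 and -0.47.

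The early rise depended on the low reference arrays and the later decrease grew without them. Centring moved the median of all genes at day 5 from 0.38 to 0.06 and that of the 88 genes to 0.20, with 18 genes higher and 4 lower (20.5% of all genes called). Without the 7 arrays of low level, 6 genes were higher and 2 lower at day 5 (16.4% of all genes), with medians of 0.19 for the set and 0.21 for all genes. Leaving out rat 13 of the 4 mm day 1 group alone left 9 genes called at day 5, and leaving out rat 11 of the 8 mm day 1 group left 16. Leaving out other single arrays also raised the number, and over all such fits it ran from 9 to 40 at day 5. At day 7 the counts were 10 higher and 4 lower after centring (25.2% of all genes), 8 and 4 without the 7 arrays (21.3%), and 8 and 11 with both (23.4%), and with both the set's median difference turned to -0.14. At day 3, 10 genes were called without rat 12 of the 8 mm day 1 group, 6 without rat 17 of 4 mm, 2 without rat 13 of 8 mm, and none without rats 13 or 18 of 4 mm or rats 11 or 16 of 8 mm. Rats 12 and 15 of the 8 mm day 7 group each left 2 genes at day 3 when left out, although they enter that comparison only through the pooled spread. At day 7, 8 genes were called without rat 13 of 4 mm day 1, and 9 without rat 18 of 4 mm day 1, rat 11 of 8 mm day 1 or rat 15 of 8 mm day 7. At day 10 the numbers were 3 without rat 13 of 4 mm day 1 and 10 without rat 10 of 4 mm day 10, and at day 14 they were 4 without rat 13 of 4 mm day 1 and 12 without rat 12 of 8 mm day 1. With muscle and brain marker levels as covariates 29 genes were called at day 5 (25.7% of all genes) and 19 at day 7 (25.2%), all of them higher.

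At day 21 the decrease became the main pattern once the 7 arrays were left out: 27 genes were lower and 4 higher, where 30.6% of all genes were called, 16.9% of them lower and 13.7% higher. The set's median was then -0.47, against -0.24 for all genes. The 27 were 12 of 32 complex I subunits, with a median of -0.51 over the 32, 6 of 15 ATP synthase subunits, 2 of 7 complex III subunits, 2 of 7 complex I assembly factors, 1 each of complex II and common complex IV, and 3 others. After centring as well, 25 were lower and 6 higher (33.2% of all genes), with medians of -0.34 and -0.12. Centring with all arrays gave 10 lower and 7 higher (33.7% of all genes), and the covariates gave 7 higher and none lower (22.1% of all genes). The number called lower at day 21 thus ran from 0 to 27 over these settings, which bears on each single gene given below.

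The classes were also averaged on each array. The mean log2 of the complex I subunits in 4 mm defects was -0.49 ± 0.70 (SD, n = 3) at day 1, 0.23 ± 0.34 (n = 11) at day 5, 0.33 ± 0.17 (n = 5) at day 7 and -0.31 ± 0.18 (n = 6) at day 21. In 8 mm defects it was -0.35 ± 0.93 (n = 5), 0.24 ± 0.37 (n = 12), -0.23 ± 0.32 (n = 5) and -0.64 ± 0.27 (n = 6) at those days. The wide spread at day 1 came with the arrays of low level. ATP synthase subunits stood at 0.33 ± 0.10 in 4 mm and -0.39 ± 0.31 in 8 mm defects at day 7, and at -0.32 ± 0.13 and -0.51 ± 0.28 at day 21. Complex II, complex III and the common complex IV subunits had day 21 means of -0.16, -0.25 and -0.19 in 4 mm and -0.57, -0.61 and -0.36 in 8 mm defects. Centring narrowed these: at day 21 in 8 mm defects complex I stood at -0.31 ± 0.10, complex III at -0.29 ± 0.09, ATP synthase at -0.18 ± 0.11 and common complex IV at -0.04 ± 0.21. In 8 mm defects the tissue isoforms above the floor, Cox4i2 and Cox6a2, went the other way. The mean of these 2 genes went from -0.97 ± 0.74 at day 5 to 1.59 ± 0.36 at day 21, and from -1.06 ± 0.60 to 1.91 ± 0.47 after centring. As given below, Cox4i2 was spread widely at day 21 in 4 mm defects, and another probe of Cox6a2 did not show the late rise.

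Tested over all 7 days within a size by limma's F test, 23 of the 88 genes changed in 4 mm defects, where 36.1% of all genes did, and 37 changed in 8 mm defects, where 43.3% of all genes did. In 8 mm defects these were 15 complex I subunits, 3 complex I assembly factors, 6 ATP synthase subunits, 4 tissue isoforms, 2 of complex III, 2 common complex IV subunits and 5 others, and none of the 4 complex II subunits. In 4 mm defects they were 9 complex I subunits, 4 of ATP synthase, 3 tissue isoforms, 2 common complex IV subunits, 1 of complex III and 4 others. Of these genes, 19 were called in both sizes, which is 82.6% of the 4 mm and 51.4% of the 8 mm genes. Compared with day 1 within a size, 4 genes were higher and none lower at day 5 in 4 mm defects (8.21% of all genes called), 10 and 1 at day 7 (16.2%) and none at day 21 (10.7%; limma, with 7 at an unadjusted p under 0.05). In 8 mm defects 9 were higher at day 5 (14.6%), 2 at day 7 (10.2%), and 3 higher and 5 lower at day 21 (20.0%). In the F test, centring gave 27 and 36 genes (39.4% and 45.2% of all genes). Without the 7 arrays the test called 40 in 4 mm and 64 in 8 mm defects (45.9% and 49.3% of all genes).

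Among the 37 genes that changed over time in 8 mm defects, 28 had their highest group mean at day 5 and 25 their lowest at day 21. After centring these were 14 and 17 of 36 genes. Among the 23 genes in 4 mm defects, 9 were highest at day 7 and 7 at day 5, and 10 were lowest at day 21 and 9 at day 1. After centring 6 of 27 genes were highest at day 7 and 7 at day 5, and 9 were lowest at day 21 and 5 at day 1. Group means of the set spanned less than those of other genes. Over the 14 groups the means of the 75 genes above the floor spanned a median of 1.24 log2 units, against 1.68 for the 6788 genes above the floor, and 0.92 against 1.46 after centring. The median SD between arrays of a group was 0.60 for the 75 genes and 0.68 for the 6788.

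**Figure D2:**
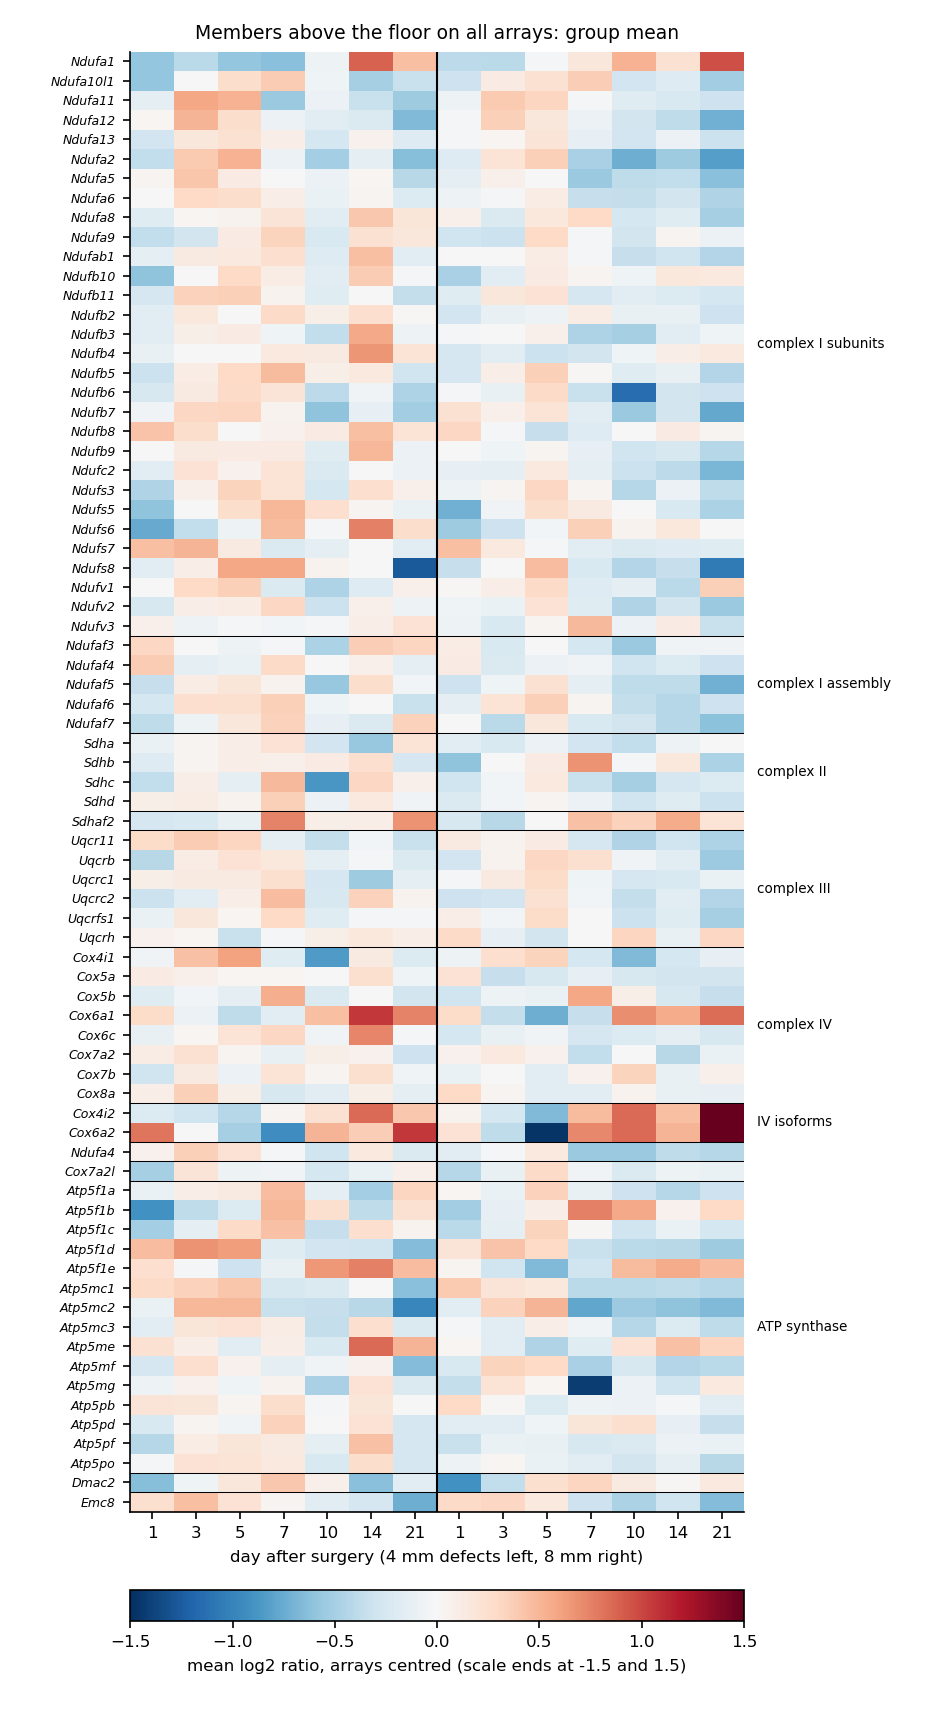
Centred log2 group means of the 75 genes that no array had at the floor, ordered by complex, with the 7 days of 4 mm defects on the left and of 8 mm defects on the right; the colour scale runs from -1.5 to 1.5. Most complex I and ATP synthase rows are lower at day 21 than at day 5, while Cox4i2 and Cox6a2 are highest at day 21 in 8 mm defects.

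Of 15 ATP synthase subunits, Atp5mc1 and Atp5f1d were lower at day 21 than at day 1. Atp5mc2 encodes the c subunit of the rotating membrane ring, as do Atp5mc1 and Atp5mc3, which yield the same mature protein. The log2 values of Atp5mc2 at day 1 were -0.72, 0.27 and -0.73 in 4 mm and -1.99, 0.37, 0.03, -0.20 and -0.08 in 8 mm defects. At day 5 the lowest, median and highest were -0.08, 0.63 and 1.07 in 4 mm and 0.25, 0.55 and 1.05 in 8 mm defects. By day 21 they were -1.45, -1.09 and -0.87, and -1.58, -0.99 and -0.43. All arrays of day 21 lay below all arrays of day 5 in both sizes, and the 8 arrays of day 1 overlapped both days. Here and below, overlap is as deposited unless stated, without the share of all genes that separated alike. Day 5 was not tested directly against day 21. Median all-probe levels of these groups went from 0.07 to -0.15 in 4 mm and from 0.06 to -0.33 in 8 mm defects. Median floor shares went from 10.4% to 15.7% and from 10.1% to 21.2%. What these shifts contributed was not tested. Over the days Atp5mc2 had the adjusted p 3.4e-05 in 4 mm and 1.7e-06 in 8 mm defects in limma's F test. Against day 1 it rose at day 5 by 0.96 ± 0.24 (SE; limma, adjusted p = 0.0017), and its difference at day 21 was -0.67 ± 0.27 (adjusted p = 0.053), or -0.96 ± 0.21 without the 7 arrays (adjusted p = 0.0002). A second probe of Atp5mc2 gave differences of 0.06 at day 5 and -0.57 at day 21, so the early rise was seen by 1 of its probes.

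Atp5mc1 was at -0.52, 0.51 and -0.03 in 4 mm and -1.22, 1.04, 0.54, 0.31 and 0.19 in 8 mm defects at day 1. At day 21 its lowest, median and highest were -0.87, -0.78 and -0.62 in 4 mm and -0.90, -0.83 and -0.36 in 8 mm defects. Only the 8 mm array of rat 11, of low level, lay below the day 21 arrays at day 1. The decrease was -0.84 ± 0.26 in limma (adjusted p = 0.0094), with 12 of 12 arrays below the day 1 mean, and -1.14 ± 0.16 without the 7 arrays (adjusted p = 1.6e-08). At day 5 the difference of Atp5mc1 was 0.28 (adjusted p = 0.45). Atp5mc3 passed at neither day, with 0.58 ± 0.26 at day 5 (limma, adjusted p = 0.10) and -0.19 at day 21 (adjusted p = 0.67), although without the 7 arrays it was lower at day 21 by -0.63 ± 0.22 (adjusted p = 0.022).

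Atp5f1d encodes the delta subunit of the central stalk. Its day 1 values were -0.71, 0.80 and 0.42 in 4 mm and -1.54, 0.92, 0.14, 0.19 and 0.17 in 8 mm defects. At day 21 the lowest, median and highest were -0.93, -0.80 and -0.68, and -1.18, -0.79 and -0.45. Apart from the 2 arrays of low level, all day 1 arrays lay above all day 21 arrays. The change at day 21 was -0.90 ± 0.27 (limma, adjusted p = 0.0069), with 12 of 12 arrays below the day 1 mean, and -1.31 ± 0.18 without the 7 arrays (adjusted p = 2.3e-08). Emc8, which is not part of the chain, fell as well at day 21, by 0.94 on the log2 scale with an SE of 0.26 (limma, adjusted p = 0.004).

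Atp5f1b, the catalytic beta subunit of ATP synthase, had another course. Its day 1 values were -1.67, -0.45 and -1.50 in 4 mm and -1.95, -0.22, -0.53, -0.21 and -0.79 in 8 mm defects. At day 7 they were 0.13, 0.70, 0.71, 0.82 and 1.25, and 0.02, 0.60, 0.10, 1.15 and 1.16. As deposited, all 10 arrays of day 7 lay above all 8 of day 1, and the rise was 1.64 ± 0.32 in limma (adjusted p = 3.8e-05). After centring the 2 days overlapped, and the rise was 1.35 ± 0.25 (limma, adjusted p = 1.7e-05). Atp5f1b was still higher as deposited at day 10, by 1.27 ± 0.32, and at day 21, by 1.00 ± 0.31 (limma, adjusted p = 0.0096) or 0.73 without the 7 arrays. Thus of 2 core subunits of the same enzyme 1 was higher and 1 lower at day 21 than at day 1. Atp5f1c, the gamma subunit that turns inside the catalytic head, rose by 1.09 at day 5 and by 0.97 at day 7.

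**Figure D3:**
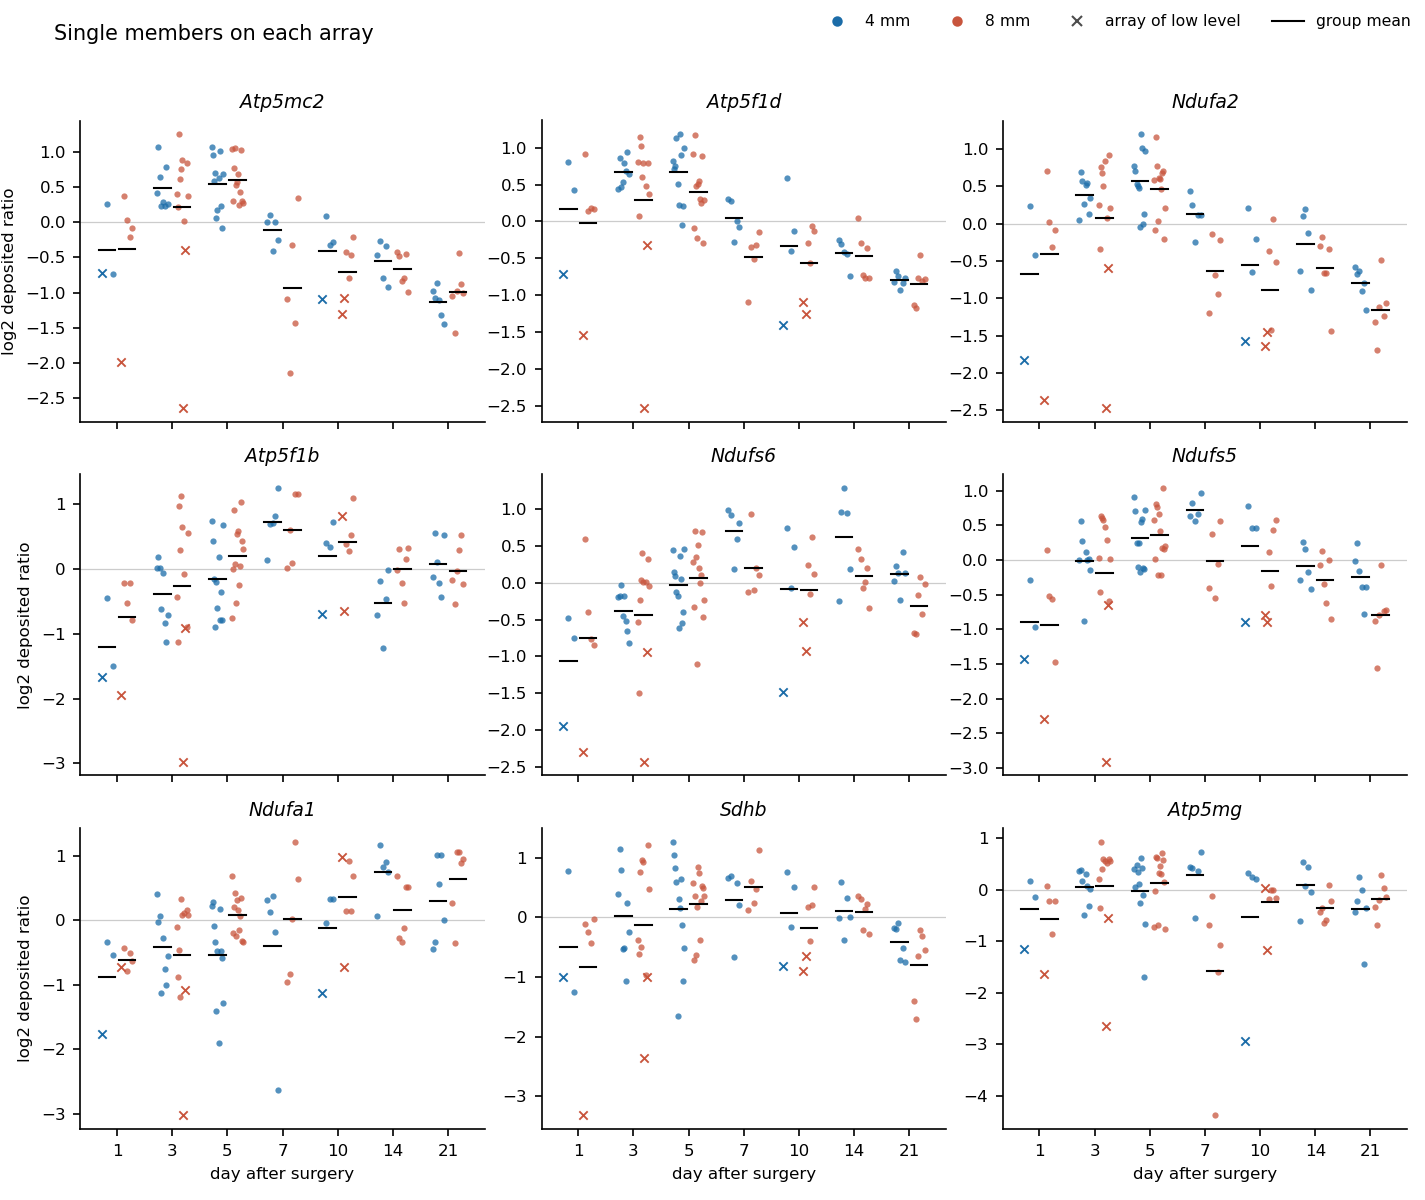
Log2 value as deposited on each array of 9 genes, by day, with 4 mm and 8 mm defects side by side. Atp5mc2, Atp5f1d and Ndufa2 are lower at day 21 than at day 5, and for Atp5f1b all arrays of day 7 lie above those of day 1.

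In complex I, the genes that led at days 5 and 7 encode subunits of different regions. Ndufs5 is an accessory subunit on the intermembrane side of the membrane arm. Its values at day 1 were -1.42, -0.29 and -0.97 in 4 mm and -2.30, 0.14, -0.51, -0.57 and -1.46 in 8 mm defects. At day 5 the lowest, median and highest were -0.17, 0.24 and 0.90, and -0.22, 0.31 and 1.04. The 4 mm groups did not overlap, and in 8 mm defects rat 12 of day 1 lay among the day 5 arrays. Ndufs5 was the only gene of the set higher at day 3 (0.82 ± 0.26; limma, adjusted p = 0.031; 18 of 19 arrays above the day 1 mean), and it rose by 1.26 ± 0.25 at day 5 (adjusted p = 5.3e-05) with 23 of 23 arrays above that mean. It was also higher at day 7, by 1.27 ± 0.29, and at day 10, by 0.94.

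Ndufs6, a zinc-binding subunit near the NADH-oxidising end of complex I, was at -1.95, -0.48 and -0.75 in 4 mm and -2.30, 0.59, -0.40, -0.76 and -0.85 in 8 mm defects at day 1. At day 7 the values were 0.99, 0.92, 0.19, 0.59 and 0.81, and -0.12, 0.93, -0.11, 0.20 and 0.10. In 4 mm defects all day 7 arrays lay above those of day 1, and in 8 mm defects rat 12 of day 1 fell among the day 7 arrays. Ndufs6 rose by 1.35 ± 0.29 at day 7 (limma, adjusted p = 0.00015), 1.26 ± 0.28 at day 14 (adjusted p = 0.00036) and 0.80 ± 0.27 at day 21 (adjusted p = 0.022). Its F test over the days passed as deposited in 4 mm but not in 8 mm defects, and in both after centring. Without the 7 arrays the 8 mm F test had the adjusted p 0.27. The interaction of size and day did not pass for Ndufs6 (limma, adjusted p = 0.83). Ndufb10, of the distal membrane arm, was higher at day 5, by 1.09 ± 0.25, at day 7, by 0.91, and at day 14, by 0.97. Ndufb4, also of the membrane arm, was higher at day 14, by 0.72.

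Dmac2, listed on the platform under the older symbol Atp5sl, is now known as an assembly factor of the distal membrane arm of complex I. Its probe rose by 1.30 ± 0.29 at day 5 (limma, adjusted p = 0.00027), 1.43 at day 7 and 1.03 at day 10. A second probe of Dmac2 gave 0.59 at day 5 and -0.56 at day 10, so the day 10 direction rests on the probe used.

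Ndufs8 and Ndufa2 were high at day 5 and low at day 21. Ndufs8 carries iron-sulfur clusters of the arm that leads electrons to ubiquinone. Its lowest, median and highest values in 4 mm defects were 0.00, 0.69 and 1.19 at day 5 and -3.41, -1.37 and -0.24 at day 21. In 8 mm defects they were 0.13, 0.36 and 1.24 at day 5 and -2.79, -1.42 and 0.24 at day 21. The 4 mm groups did not overlap, and the 8 mm groups overlapped only at the highest array of day 21. Against day 1 Ndufs8 rose by 1.10 ± 0.28 at day 5 (limma, adjusted p = 0.0017) and fell by 0.88 at day 21 (SE 0.31, adjusted p = 0.025, 8 of 12 arrays below the day 1 mean), while another of its probes gave 0.01 at day 21. Ndufa2, an accessory subunit chosen here after its values were seen, had day 5 values from -0.04 to 1.20 in 4 mm and from -0.21 to 1.16 in 8 mm defects, and day 21 values from -1.16 to -0.58 and from -1.69 to -0.49. As deposited, no array of day 21 reached the lowest array of day 5 in either size. In limma's F test over the days Ndufa2 had the adjusted p 0.0015 in 4 mm and 5.4e-05 in 8 mm defects.

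Ndufa1, a small membrane subunit of complex I encoded on the X chromosome, was 1 of 2 complex I subunits higher at day 21 than at day 1. At day 1 it stood at -1.76, -0.34 and -0.54 in 4 mm and -0.72, -0.43, -0.78, -0.51 and -0.63 in 8 mm defects. The day 14 values in 4 mm defects were 0.07, 1.16, 0.82, 0.91 and 0.76, and at day 21 the lowest, median and highest were -0.44, 0.28 and 1.02 in 4 mm and -0.35, 0.92 and 1.07 in 8 mm defects. The 8 mm groups of days 1 and 21 did not overlap. The rise was 1.20 ± 0.33 at day 14 (limma, adjusted p = 0.0048) and 1.22 ± 0.33 at day 21 (adjusted p = 0.0028; 12 of 12 arrays above the day 1 mean), and 0.99 at day 21 without the 7 arrays.

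Of the 4 subunits of succinate dehydrogenase, 1 passed against day 1 as deposited. Sdha binds the flavin and oxidises succinate, Sdhb holds the iron-sulfur clusters, and Sdhc and Sdhd anchor them in the membrane. Sdhb was at -1.0, 0.78 and -1.25 in 4 mm and -3.32, -0.11, -0.25, -0.42 and -0.02 in 8 mm defects at day 1. At day 7 it was at 0.67, 0.69, -0.67, 0.58 and 0.21, and at 0.13, 0.61, 0.24, 0.48 and 1.14. In 8 mm defects the day 7 arrays all lay above those of day 1, while in 4 mm defects the groups overlapped. Sdhb was the only one of the 4 to pass as deposited, with 0.83 ± 0.32 at day 5 (limma, adjusted p = 0.049) and 1.06 ± 0.37 at day 7 (adjusted p = 0.025). After centring its day 7 difference was 0.77 ± 0.31 and did not pass (limma, adjusted p = 0.054). At day 5 Sdha, Sdhc and Sdhd had differences of 0.47, 0.67 and 0.44 (adjusted p = 0.37, 0.20 and 0.24). None of the 4 changed over the days in the F test, with adjusted p-values from 0.23 to 0.72 in 4 mm and from 0.058 to 0.87 in 8 mm defects. Without the 7 arrays Sdhd was lower at day 21, by -0.54 ± 0.20 (limma, adjusted p = 0.036).

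The isoform pairs of complex IV did not share 1 course. Cox4i1, the common form of the largest nuclear subunit, was at -1.19, 0.41 and -0.28 in 4 mm and -1.53, 0.22, 0.27, -0.03 and -0.37 in 8 mm defects at day 1. At day 5 its lowest, median and highest were 0.12, 0.65 and 1.23, and -0.59, 0.58 and 1.29, and at day 21 they were -0.69, -0.31 and -0.18, and -0.78, -0.47 and -0.09. In 4 mm defects day 21 lay wholly below day 5, and in 8 mm defects the groups overlapped. Cox4i1 rose by 0.86 ± 0.25 at day 5 (limma, adjusted p = 0.0068) and differed from day 1 by -0.08 at day 21.

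Cox4i2 replaces Cox4i1 in part of the enzyme. At day 1 it was at -0.98, -0.53 and -0.00 in 4 mm and -0.00, 0.22, -0.61, -0.51 and 0.09 in 8 mm defects. At day 5 the lowest, median and highest were -1.0, -0.34 and 0.22, and -1.0, -0.60 and 0.03, and at day 21 they were -1.62, 0.37 and 1.52, and 1.05, 1.38 and 1.80. In 8 mm defects all 6 arrays of day 21 lay above every array of days 1 and 5, while the 4 mm arrays were spread over the whole range. Cox4i2 rose by 0.89 ± 0.29 at day 14 (limma, adjusted p = 0.018) and by 1.15 ± 0.28 at day 21 (adjusted p = 0.0011; 10 of 12 arrays above the day 1 mean), and by 1.05 at day 21 without the 7 arrays. Within 8 mm defects, where 20.0% of all genes and 8 of the 88 were called at day 21, the rise was 1.54 ± 0.37 (adjusted p = 0.0013). Over the days it had the adjusted p 0.037 in 4 mm and 1.6e-06 in 8 mm defects.

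Cox6a1, the common form of its subunit, was at -0.08, -0.12 and 0.15 in 4 mm and 0.28, 0.22, -0.34, -0.21 and 0.34 in 8 mm defects at day 1. The lowest, median and highest at day 5 were -1.09, -0.36 and 0.63, and -1.07, -0.65 and 0.00, and at day 21 they were 0.11, 0.66 and 1.10, and 0.24, 0.54 and 0.77. It was thus among the few common subunits with its lowest values at day 5, and in 8 mm defects days 5 and 21 did not overlap. The differences from day 1 did not pass as deposited, with -0.51 ± 0.25 at day 5 (limma, adjusted p = 0.13) and 0.68 at day 14 (adjusted p = 0.062), while after centring it was lower at day 5 by -0.84 ± 0.22 (adjusted p = 0.003). Its F test over the days passed in both sizes (adjusted p = 0.011 and 0.00017). Only 4 of the 37 genes that changed in 8 mm defects had their lowest mean at day 5: Cox6a1, Cox6a2, Cox4i2 and Atp5f1e, the epsilon subunit of ATP synthase.

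Cox6a2, the striated muscle counterpart of Cox6a1, was at -0.60, 1.71 and 0.40 in 4 mm and -0.18, -1.13, 0.47, 0.32 and 0.55 in 8 mm defects at day 1. At day 5 the lowest, median and highest were -1.74, -0.54 and 1.45, and -4.02, -1.32 and 0.79, and at day 21 they were -0.31, 0.67 and 2.35, and 0.38, 2.01 and 2.34. All but 1 of the 8 mm arrays of day 21 lay above every 8 mm array of day 1. It was lower at day 5, by -1.17 ± 0.43 (limma, adjusted p = 0.039; 20 of 23 arrays below the day 1 mean), and within 8 mm defects higher at day 21, by 1.79 ± 0.62 (adjusted p = 0.031), while over both sizes the day 21 difference was 1.10 ± 0.48 (adjusted p = 0.076). In that 8 mm day 21 group the mean of the 16 muscle markers was the lowest of all groups, -2.34, with arrays from -3.16 to -1.60. A second Cox6a2 probe gave -1.04 at day 5 and 0.19 at day 21, so the late rise was seen by 1 of its probes.

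Cox8b, the striated muscle form of the smallest subunit, was high at day 1 and low from day 7 on, as were the muscle markers. Its day 1 values were -5.35, 6.64 and 4.83 in 4 mm and -1.02, 2.02, 5.21, 5.82 and 5.79 in 8 mm defects. In 4 mm defects 4 of 5 arrays of day 7 were at the floor and the other was at -0.11, and at day 14 the values were -2.06 and -2.61, with the other 3 arrays at the floor. At day 7 in 8 mm defects they were 0.18, 1.95, 4.46, -1.15 and -6.64. Most later arrays lay far below most day 1 arrays, but the groups overlapped. The fitted differences from day 1 were -5.59 ± 1.55 at day 7 (limma, adjusted p = 0.0042), -5.34 ± 1.56 at day 10, -6.64 ± 1.52 at day 14 (adjusted p = 0.00052) and -5.08 ± 1.49 at day 21 (adjusted p = 0.0065), and they rest in part on 18 arrays at the floor, which have only an upper bound. With muscle and brain markers as covariates the difference of Cox8b was -0.56 at day 7 (adjusted p = 0.79) and turned to 0.31 at day 10 and 0.92 at day 21.

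**Figure D4:**
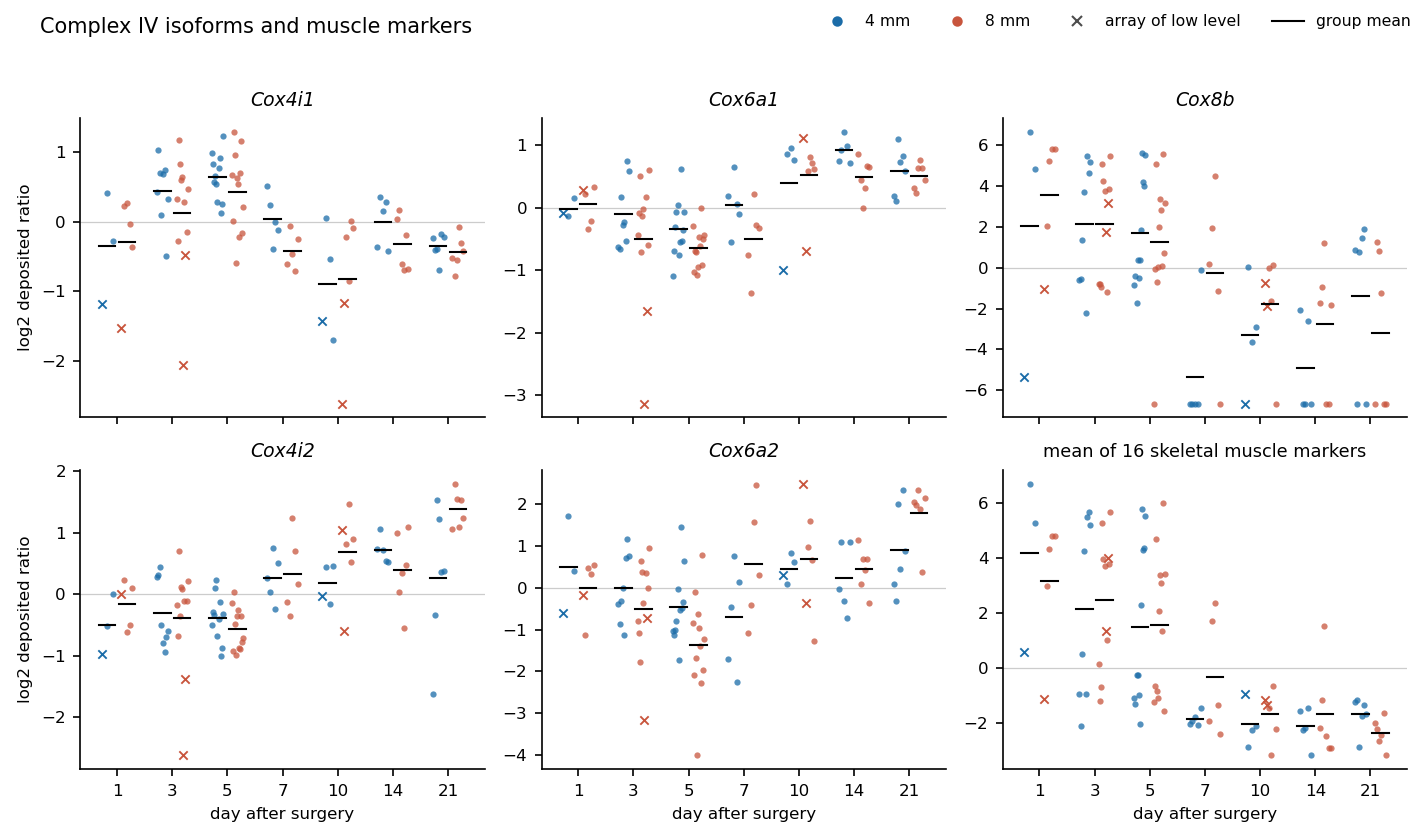
Log2 value as deposited on each array of Cox4i1, Cox6a1, Cox8b, Cox4i2 and Cox6a2, with the mean of the 16 skeletal muscle markers, by day and defect size. Cox8b and the muscle markers are high at day 1 and low from day 7 on, while Cox4i2 and Cox6a2 are highest at day 21 in 8 mm defects.

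Of the other isoforms, Cox6b2, the testis form, was at -0.30, -2.75 and -4.83 in 4 mm and -0.85, -1.95, -0.56, -1.38 and -3.30 in 8 mm defects at day 1. At day 5 the lowest, median and highest were -0.67, 0.36 and 1.14, and 0.17, 1.26 and 1.79. All 8 mm arrays of day 5 lay above those of day 1, and the rise over both sizes was 2.82 ± 0.65 (limma, adjusted p = 0.0005), with 1.99 ± 0.75 at day 7 (adjusted p = 0.04) and 2.45 at day 10. After centring the day 7 difference was 1.69 ± 0.75 and did not pass (limma, adjusted p = 0.087). The F tests of Cox6b2 over the days passed in both sizes as deposited and in neither after centring. Cox6b2 also had values at the floor. Cox8a, the common form beside Cox8b, differed by 0.09 at day 5 (limma, adjusted p = 0.83) and -0.32 at day 21 (adjusted p = 0.32), though without the 7 arrays by -0.51 ± 0.15 at day 21 (adjusted p = 0.0073). Cox8c was at the floor on many arrays and differed by 0.08 ± 1.60 at day 5 and -1.81 ± 1.77 at day 21. Cox7a2 differed by 0.30 at day 5 (limma, adjusted p = 0.52) and -0.27 at day 21 (adjusted p = 0.55), while Cox7a2l rose by 0.89 ± 0.25 at day 5 (adjusted p = 0.0052). Ndufa4 passed at neither day, with 0.56 at day 5 (limma, adjusted p = 0.14) and -0.26 at day 21 (adjusted p = 0.55), and was lower at day 21 by -0.62 ± 0.24 (adjusted p = 0.037) without the 7 arrays.

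The 2 defect sizes were compared at each day. No gene of the set differed between 8 mm and 4 mm at days 1, 3, 5, 10, 14 or 21 in limma as deposited, where 0.0%, 0.0%, 0.0%, 0.352%, 1.32% and 2.44% of all genes were called; at an unadjusted p under 0.05 the numbers were 0, 0, 2, 1, 2 and 10 of 88. At day 7, 1 gene passed, where 0.559% of all genes did, and 23 were under the unadjusted 0.05. The median difference of the 88 genes at day 7 was -0.62, against -0.43 for all genes, and after centring -0.25 against -0.05. At day 21 it was -0.33 against -0.19, and after centring -0.16 against -0.02. The interaction of size and day passed for none of the 88 genes, where 0.59% of all genes passed, and 1 gene had an unadjusted p under 0.05.

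Where no gene passed, the 3 with the smallest p at each day were Uqcrq, Ndufs3 and Atp5f1b at day 1, Ndufs7, Cox8a and Cox5a at day 3, Cox6a2, Ndufa1 and Cox7a2l at day 5, Atp5hl1, Ndufb6 and Ndufs8 at day 10, Uqcrq, Cox6c and Ndufb9 at day 14, and Cox4i2, Ndufaf7 and Ndufs4 at day 21. At day 5 Ndufa1 had a difference of 0.61 ± 0.29 and Cox6a2 one of -0.91 ± 0.43, both with an adjusted p of 1 in limma. At day 14 Cox6c, a common complex IV subunit, had -0.81 ± 0.39 (limma, adjusted p = 0.395), with 6 of 6 arrays of 8 mm below the 4 mm mean. Uqcrq, a small complex III subunit with values at the floor, had 3.85 ± 1.68 at that day (adjusted p = 0.306). Ndufs4, a complex I subunit also with values at the floor, had -3.87 ± 1.47 at day 21 (limma, adjusted p = 0.147).

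The gene that passed at day 7 was Atp5mg, the g subunit of the ATP synthase membrane part, which takes part in joining the enzyme into dimers. Its values were 0.45, 0.43, -0.54, 0.36 and 0.72 in 4 mm and -0.69, -0.13, -4.37, -1.59 and -1.08 in 8 mm defects. The groups overlapped by 1 array of 4 mm, and 1 array of 8 mm was far below the rest. The difference was -1.86 ± 0.48 (limma, adjusted p = 0.048) and -1.48 after centring (adjusted p = 0.062), where none of the 88 genes and 0.49% of all genes passed. It lost the call when any 1 of 11 arrays was left out, among them rat 18 of 4 mm day 1, rats 13, 14 and 16 of 8 mm day 1, rats 10, 12, 14 and 15 of 4 mm day 7, rats 13 and 14 of 8 mm day 7 and rat 20 of 4 mm day 14.

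Without the 7 arrays of low level, none of which is from day 7, 22 of the 88 genes were lower in 8 mm than in 4 mm defects at day 7, where 10.3% of all genes were called. They included 10 complex I subunits, 5 ATP synthase subunits and 2 of the 4 complex II subunits. The median of the set was -0.62 as before, and after centring 1 gene passed (3.54% of all genes). Sdhc, which was at 0.81, 0.64, 0.48, 0.61 and 1.03 in 4 mm and -0.02, 0.29, -0.70, 0.12 and -2.09 in 8 mm defects, differed without overlap, by -1.19 ± 0.31 in this fit (limma, adjusted p = 0.0097). Sdhd was at 0.62, 0.45, 0.44, 0.46 and 0.96, and at -0.51, 0.02, -0.91, -0.07 and 0.30, also without overlap. At that day the mean of 9 brain markers was 1.46 ± 2.30 in 8 mm and -0.90 ± 1.02 in 4 mm defects. That of the muscle markers was -0.31 and -1.83, and the part of these markers in the result was not tested in this setting. The day 7 arrays also differed by size in level and floor. The median over all probes, which centring removes, ran from 0.12 to 0.27 in 4 mm and from -0.29 to 0.16 in 8 mm defects. The floor held 11.9% to 16.7% of values on 4 mm arrays and 10.1% to 17.2% on 8 mm arrays. The middle arrays had 13.4% and 10.2%. What this floor difference contributed to the day 7 size results was not tested.

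At day 21 the named differences were Cox4i2, 1.12 ± 0.35 higher in 8 mm than in 4 mm defects (limma, adjusted p = 0.065), and Ndufaf7, an assembly factor of complex I, with -1.14 ± 0.40 (adjusted p = 0.11). After centring both passed, with 1.29 ± 0.32 (adjusted p = 0.011) and -0.97 ± 0.30 (adjusted p = 0.048), where 3.52% of all genes were called. They also passed without the 7 arrays (adjusted p = 0.017 and 0.013), where 5.14% of all genes were called. The difference in time course between the sizes did not pass for Cox4i2 (limma's interaction test, adjusted p = 0.45, and 0.14 after centring) or Cox6a2 (adjusted p = 0.47 and 0.20).

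Genes around the chain were counted in the same fits. At day 5, 5 of 15 genes of the citrate cycle and pyruvate dehydrogenase were higher and none lower, with a median of 0.59, where 21.5% of all genes were higher and 2.04% lower. Among them Pdhb, a subunit of pyruvate dehydrogenase, rose by 1.39 ± 0.36 and Ogdh, of the oxoglutarate dehydrogenase complex, by 1.06 ± 0.28. Of 14 fatty acid oxidation genes 7 were higher, with a median of 0.77, and Eci1, an isomerase for unsaturated fatty acids, rose by 1.87 ± 0.26 (limma, adjusted p = 2.1e-08). Of 24 assembly factors outside the set 5 were higher, led by Oxa1l, which inserts proteins into the inner membrane (1.55 ± 0.24, adjusted p = 3.4e-07), and Nubpl, which supplies iron-sulfur clusters to complex I (1.25 ± 0.24). Of 13 electron carrier genes 2 were higher, and of 10 nucleotide carriers and porins 2, among them Slc25a4, the muscle form of the ADP/ATP carrier (1.24 ± 0.30). After centring 2 of 15, 5 of 14, 5 of 24 (with 1 lower), 1 of 13 and 2 of 10 of these genes were higher, where 20.5% of all genes were called in either direction. The lists are set beside these shares without a test of the difference. The regulators of mitochondrial biogenesis had 1 of 19 genes higher at day 5, Polg, the mitochondrial DNA polymerase (1.06 ± 0.32).

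At day 21, 2 of 19 biogenesis regulators were higher and 3 lower, where 16.0% of all genes were higher and 12.1% lower. Ppargc1b, a coactivator of oxidative metabolism, and the nuclear receptor Ppard were higher by 2.17 ± 0.56 and 2.04 ± 0.50, and Nrf1, Esrra and Gabpa, DNA-binding factors with sites in respiratory gene promoters, were lower by -0.85 ± 0.30, -1.05 ± 0.30 and -2.45 ± 0.71. Of the citrate cycle genes 2 were higher and 2 lower, of fatty acid oxidation genes 2 and 1, and of electron carriers none and 3. Of 20 hypoxia and glycolysis genes, 1 was higher and 4 were lower at day 5 (median -0.28) and 3 were higher and 11 lower at day 21 (median -1.76, and -1.77 after centring). Vegfa, the endothelial growth factor, was lower by -2.0 ± 0.29 at day 5 and -2.99 ± 0.32 at day 21 (limma, adjusted p = 4.1e-12), and Ldha, which makes lactate, by -1.92 ± 0.34 at day 21. Macrophage, endothelial and muscle marker levels moved over the same days as given above, and their part in these lists was not tested. The examples from these lists were chosen after their values were seen.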

How the data were processed

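Total RNA of 93 defects was hybridised to one-colour Agilent rat arrays, per the labels. The deposited series table holds linear ratios per probe with a floor of 0.01, which held 13.4% of values; the authors' feature extraction, background correction and scaling were not given in the sources used here, so signal over background is unknown. The values were turned into log2 of the deposited ratio with no pseudocount, although the design had assumed log2 values. Symbols came from the platform annotation: 20932 probes had 1 symbol and 20158 were unnamed here. Symbols were updated through accessions to GRCr8 RefSeq names, for 18 of the 88 genes. Where a gene had more than 1 probe, the probe at the floor on the fewest arrays was used, ties by the larger interquartile range.

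Group means of all 14 groups were estimated together with limma 3.58.1 (R 4.3.3), and two-sided p-values were adjusted by Benjamini-Hochberg over 15924 genes, with a threshold of 0.05. Day comparisons weigh both sizes equally. Code was tested on simulated data. The text names the isoform sets, the c subunit genes, the succinate dehydrogenase genes, up to 5 genes each way per day among those that passed, and up to 3 each way per size comparison, or the 3 with the smallest p. Genes, lists and rules were chosen with earlier results of these data known. The labels do not say that samples with the same rat number share an animal, and the alternatives are given in the closing section. P-values set a difference against the spread between arrays within groups, pooled over all 14 groups and moderated across genes. The number of arrays limits the precision.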

Additional observations from a re-analysis of the deposited data

Results flagged for a closer look

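Among 110 checks of class means and named genes for an array standing apart from its group of 4 to 10, 9 were past Dixon's critical value, and chance alone gives about 1 in 20. Of these, 4 concerned rat 10 of the 4 mm day 10 group, an array of low level: complex I assembly factors at -1.56, complex II at -2.01, complex III at -1.33 and Cox6a1 at -0.99, each the lowest of its group. Cox6a1 was also lowest, at -0.69, on the array of rat 11 of the 8 mm day 10 group, and Atp5mc2 at -1.99 on that of rat 11 of the 8 mm day 1 group, both of low level. The other 3 were on arrays outside the 7 of low level. Complex I assembly factors were at -0.14 for rat 13 of the 8 mm day 21 group, the array with its highest level, 0.15. Complex II was at 0.059 for rat 13 of the 4 mm day 7 group, the array with its lowest level, 0.29. Cox6a2 was at 0.38 for rat 14 of the 8 mm day 21 group, in which the other arrays were higher.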

How the results depend on the processing

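The numbers of the 88 genes called as deposited were 1, 27, 16, 6, 7 and 11 at days 3, 5, 7, 10, 14 and 21, with 23 and 37 changing over the days in 4 mm and 8 mm defects and 1 differing by size at day 7. Counts that moved by over 1.5 times were as follows. Centring gave 3, 14, 12 and 17 at days 3, 10, 14 and 21, and 0 and 2 by size at days 7 and 21. Leaving out the 7 arrays of low level, chosen after seeing the data, gave 2, 8, 12, 13 and 31 at days 3, 5, 10, 14 and 21, 22 and 5 by size at days 7 and 21, 40 and 64 over the days and 1 interaction. Both together, also chosen after seeing the data, gave 3, 13, 15, 20 and 31 at those days, 3 by size at days 14 and 21, and 41 and 61 over the days. Muscle and brain covariates gave 2, 11 and 7 at days 3, 14 and 21, 0 by size at day 7 and 20 over the days in 8 mm defects. Fits of the compared groups alone gave 0, 8, 2 and 6 at days 3, 7, 10 and 21 and 0 by size at day 7. Quantile normalization gave 7 and 14 at days 3 and 10 and 0 by size at day 7. The probe with the largest interquartile range gave 10 at day 7 and 0 by size, the mean of probes 0 by size at day 7, and genes above the floor on all arrays alone 4 at day 3. For the covariates and the compared groups alone the cause was not tested.

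Leaving out 1 array at a time in groups of up to 5 gave 0 to 10, 9 to 40, 8 to 24, 3 to 10, 4 to 12 and 9 to 13 at the 6 later days, 17 to 26 and 36 to 51 over the days, 0 to 1 by size at day 7 and 0 for the other sizes and the interaction. Reversed were Dmac2 at day 10, -0.56 with the other probe, Cox8b at days 10 and 21, 0.31 and 0.92 with the covariates, and by size at day 1 Uqcrq, with a range of -0.094 (without rat 18 of 4 mm) to 3.57, and Ndufs3, -0.10 without rat 13 of 4 mm.

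The rat number is shared by groups, but among 34 pairs of arrays with the same number on a day the median correlation of deviations was 0.009 and 2 were over 0.1. With the number as a replicate block the counts were 1, 27, 15, 6, 7 and 11, and all 89 named results kept their call. Unknown signal over background limits what can be said of values near the floor.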
